A study of Mus musculus with 16 samples.

Results

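SR proteins and heterogeneous nuclear ribonucleoproteins (hnRNPs) are RNA-binding proteins that help decide which exons of a pre-mRNA are kept. Their genes were followed here in hippocampal RNA of 16 mice. Members were the genes whose symbol begins with Srsf, Tra2, Luc7l or Hnrnp, other than pseudogenes, that passed a low-count filter over the 4 groups. Of 39 symbols with these stems, 3 were pseudogenes and were left out, and all 36 others passed, so the families make up 36 of the 17555 genes kept. They comprise 16 SR-type genes (11 Srsf, 2 Tra2 and 3 Luc7l) and 20 Hnrnp genes.

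The 4 groups of 4 mice were WT and hTau.P301S, each without and with NR, named WT, hTau.P301S, WT + NR and hTau.P301S + NR. In the hTau.P301S strain, human Tau bearing P301S, a mutation that causes inherited tauopathy, is expressed from the Thy1 promoter, which is active in neurons. NR (nicotinamide riboside), a precursor of NAD+, was supplied at 6 mM in the drinking water, and the mice without NR received vehicle water. According to the sample labels the mice were treated for 3 months, from 12 to 15 months of age, and then passed through behavioural tests before the hippocampus was taken. Passages of the study's text give a younger age and, in one place, a shorter treatment. No test used the age or the duration. Each sample is a whole hippocampus, so fewer cells of a type and less RNA per cell cannot be told apart. P-values measure the spread between these 4 mice per group.

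SR proteins have an RNA-recognition motif and a tail rich in arginine and serine, and most of them promote the use of nearby exons when bound to exonic enhancers. Kinases of the Srpk and Clk families phosphorylate the tail and set where in the nucleus the proteins work. HnRNPs coat nascent transcripts, often silence exons, and also take part in RNA export, stability and translation. Members of both families bind around the alternatively spliced Tau exon that adds a microtubule-binding repeat. Many of these genes limit their own level by splicing in a poison exon or keeping an intron, which sends the transcript to nonsense-mediated decay.

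Total counts ranged from 16490261 to 21915362 per mouse. The library of hTau.P301S replicate 1 differed from the rest, with 14.4% mitochondrial counts (4.48% to 7.07% elsewhere) and 19467 genes with a count (22199 or more elsewhere). Markers of hippocampal subfields were detected in every mouse, all 7 of 7. Markers of neighbouring tissue differed between mice. The summed level of 7 striatal markers was 2078 CPM (counts relative to the library's total count, after TMM scaling of that total) in WT replicate 2 and from 84.1 to 706 CPM in the other 15 mice. Summed levels of 6 choroid plexus markers ran from 19.1 to 9851 CPM and varied widely within each group. The part of these differences in the results below was not tested, but the main values are also given without hTau.P301S replicate 1.

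All 36 genes were well expressed. Levels per length are given as FPKM (CPM divided by the gene's deposited length in kilobases), which allows genes to be compared. For 32 of the 36 members that length equalled the gene's merged exons in GENCODE, and it is not the span on the chromosome. The exceptions had longer merged exons, namely Srsf7 (2279 bases deposited, 3550 merged), Hnrnpul2 (5726 and 7108), Hnrnpm (4701 and 7956) and Luc7l (7509 and 7523). On merged exons their FPKM would be lower, so their places in the order depend on the length used. The median over the 16 mice was above the median of all genes kept, 3.81 FPKM, for each of the 36. Hnrnp genes had a median of 30.1 FPKM and SR-type genes 14.4 FPKM. The 5 highest were all hnRNPs. Hnrnpa0, an A/B-type hnRNP that binds AU-rich elements of mRNAs, had 84.5 FPKM. It was followed by Hnrnpa2b1 at 58.4 FPKM and Hnrnpa1 at 57.5 FPKM, exon silencers that also carry mRNAs through the cell. Hnrnpk, which binds C-rich RNA, stood at 55.1 FPKM and Hnrnpul2, a relative of the nuclear scaffold protein Hnrnpu, at 49.98 FPKM. Among these 5 the ranges over mice overlapped, from 50.3 to 109.6 FPKM for Hnrnpa0 and from 50.2 to 68.2 FPKM for Hnrnpa2b1, so their order is not resolved.

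Of the SR-type genes, Srsf5 (38.7 FPKM), Srsf7 (32.3 FPKM) and Srsf2 (30.3 FPKM) were highest by deposited length, and the place of Srsf7 rests on that length. Srsf2 encodes SC35, the classical marker of nuclear speckles, and Srsf7 the only SR protein with a zinc knuckle. Srsf9 (25.1 FPKM), Srsf1 (24.8 FPKM), Srsf6 (19.7 FPKM) and Srsf3 (16.4 FPKM) came next. Luc7l3 (15.3 FPKM), Luc7l (13.5 FPKM) and Luc7l2 (10.2 FPKM), homologues of a yeast U1 snRNP protein that acts in 5′ splice site choice, were in the middle of the order. Srsf11 (10.1 FPKM), Srsf10 (9.69 FPKM), Tra2a (8.28 FPKM), Tra2b (7.33 FPKM), Srsf12 (6.92 FPKM) and Srsf4 (5.53 FPKM) were the lowest of the class. The lowest of all members were Hnrnpr, with a deposited length of 22199 bases and 4.58 FPKM, Srsf4, and Hnrnpll with 5.81 FPKM. The other hnRNPs lay between, with Hnrnpc (43.5 FPKM), Hnrnpab (42.0 FPKM), Hnrnpu (34.4 FPKM), Hnrnpdl (33.0 FPKM), Hnrnph2 (30.6 FPKM), Hnrnph1 (29.7 FPKM) and Hnrnpl (28.7 FPKM) above Hnrnpm (21.9 FPKM), Hnrnpd (18.9 FPKM), Hnrnpa3 (16.3 FPKM), Hnrnpf (15.9 FPKM), Hnrnpul1 (12.7 FPKM) and Hnrnph3 (10.7 FPKM).

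**Figure D1:**
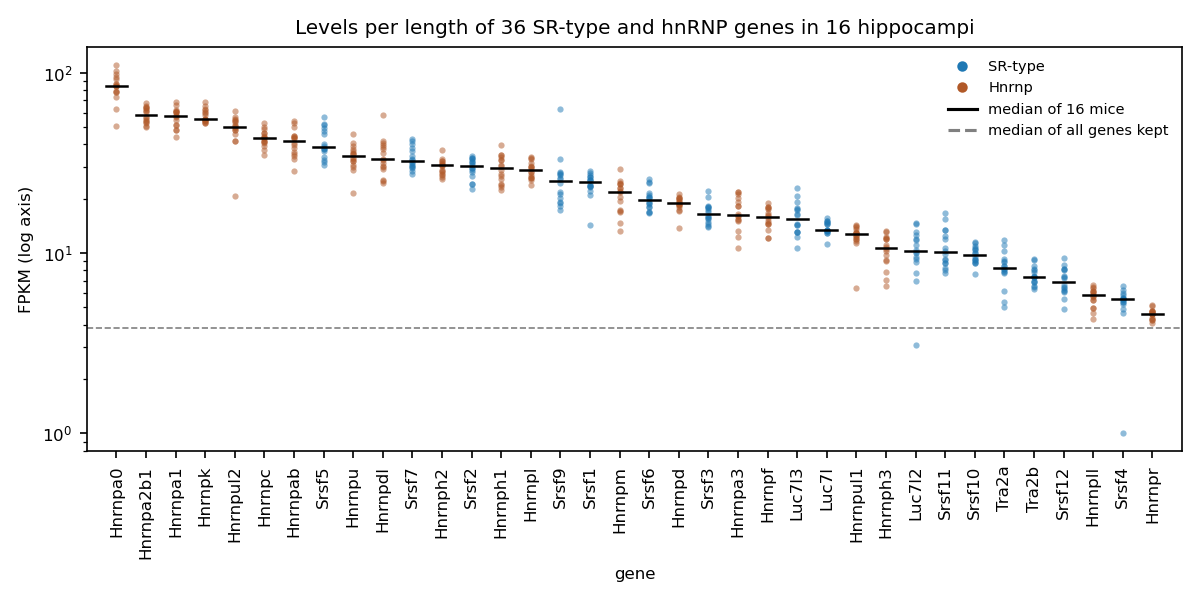
Level per length (FPKM, log axis) of each of the 36 genes in the 16 mice, one point per mouse, with the median as a black line and the median of all genes kept (3.81 FPKM) as a dashed line. Hnrnpa0 leads at 84.5 FPKM and Hnrnpr is lowest at 4.58 FPKM, and every gene's median lies above the dashed line.

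Depth did not limit these values for most members, since 35 of the 36 had over 100 counts in every mouse. The exception was Srsf4, with 42 counts in hTau.P301S replicate 1. Levels were also steady between mice. The standard deviation of log2 CPM over the other 15 mice had a median of 0.18 for the members and 0.32 for all genes kept. All 36 members lay above the median FPKM of the genes kept, and genes of like level were not compared. Among members the standard deviation ranged from 0.09 for Hnrnpd to 0.35 for Srsf11.

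In hTau.P301S relative to WT mice, none of the 36 genes passed an adjusted p of 0.05 with an absolute log2 fold change above 0.5, where 0.00611% of all 16375 genes tested did (edgeR). More members were lower than higher. Of the 36 genes, 26 had a negative log2 fold change and 10 a positive one, while 52.3% of all genes tested were positive. The median log2 fold change was -0.20 over the 16 SR-type genes, -0.10 over the 20 Hnrnp genes and 0.02 over all genes tested. Unadjusted p-values under 0.05 were found for 5 members (13.9%), all of them lower, against 7.14% of all genes in either direction and 3.73% in the lower direction. These 5 were Hnrnph1, Hnrnpm, Tra2a, Luc7l3 and Hnrnph3. The study's own list of splicing genes, chosen on these samples, holds Hnrnph1, Hnrnpm and Tra2a, so their direction here is not independent evidence. Leaving out each of the 8 mice in turn, Tra2a, Hnrnph1 and Hnrnpm had an unadjusted p under 0.05 in all 8 fits, Luc7l3 in 5 and Hnrnph3 in 1.

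Summed levels of cell type markers were compared in the same mice. The 6 astrocyte markers summed to 1369 to 1840 CPM in WT and to 1865 to 2628 CPM in hTau.P301S mice, without overlap. The 6 microglia markers summed to 263 to 327 CPM in WT and to 319 to 670 CPM in hTau.P301S mice, and the 6 oligodendrocyte markers to 2748 to 7937 CPM and 7315 to 10048 CPM, so that both overlapped. The 6 neuron markers overlapped too, with 3022 to 5033 CPM and 2597 to 5711 CPM. None of these markers was at 0 in any mouse, and their part in the members' differences was not tested.

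Tra2a (ENSMUSG00000029817, chromosome 6 of GRCm38 from 49243924 to 49264033) encodes a homologue of fly transformer-2 that binds GAA-rich exonic enhancers. It stood at 62.7, 56.4, 76.5 and 82.0 CPM in the 4 WT mice and at 53.4, 42.7, 34.7 and 36.9 CPM in the 4 hTau.P301S mice. The highest hTau.P301S mouse, replicate 1, lay below the lowest WT mouse. The log2 fold change with its standard error (SE) was -0.72 (SE 0.21, unadjusted p = 0.00767, adjusted p = 0.598), and an exact permutation test gave p = 0.0286, which is the lowest value possible for 4 against 4 mice.

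Hnrnph1 (ENSMUSG00000007850, chromosome 11 from 50376990 to 50386528) encodes a protein that binds runs of G and can enhance or silence exons. Its level was 198, 191, 203 and 233 CPM in WT and 129.9, 138, 141 and 135 CPM in hTau.P301S mice. All 4 hTau.P301S mice lay within a narrow band under every WT mouse. The difference was -0.60 (SE 0.16, unadjusted p = 0.00444, adjusted p = 0.598) on the log2 scale.

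Hnrnpm (ENSMUSG00000059208, chromosome 17 from 33646233 to 33686860) encodes a regulator that favours GU-rich motifs. WT mice had 138, 114, 96.4 and 117 CPM and hTau.P301S mice 68.9, 81.8, 80.4 and 62.4 CPM, again without overlap. Its log2 fold change was -0.66 (SE 0.18, unadjusted p = 0.00496, adjusted p = 0.598). By GENCODE exons, Hnrnpm shares 1169 bases with the neighbouring March2 on the same strand, where reads could be assigned to either gene. The deposited length of Hnrnpm is 4701 bases and its merged GENCODE exons 7956. The shared bases may therefore not be in the gene model that was counted. March2 had 212 CPM in hTau.P301S replicate 1 and from 50.6 to 72.0 CPM in the other 15 mice, and its log2 fold change in hTau.P301S against WT mice was 0.61 (SE 0.45, unadjusted p = 0.206, adjusted p = 0.620).

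Luc7l3 (ENSMUSG00000020863, chromosome 11 from 94287890 to 94321988) encodes a Luc7-like protein with an arginine-serine tail. It was measured at 127, 103, 151 and 167 CPM in WT and 77.4, 104, 94.7 and 105 CPM in hTau.P301S mice. The groups overlapped at WT replicate 2, and the log2 fold change was -0.52 (SE 0.20, unadjusted p = 0.0291, adjusted p = 0.598).

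Hnrnph3 (ENSMUSG00000020069, chromosome 10 from 63014664 to 63024217) is the shorter relative of Hnrnph1. Values were 37.7, 41.1, 34.98 and 38.4 CPM in WT and 37.9, 22.2, 24.8 and 20.7 CPM in hTau.P301S mice. Replicate 1 was at the WT level while the other 3 hTau.P301S mice lay under every WT mouse, and the log2 fold change was -0.52 (SE 0.23, unadjusted p = 0.0479, adjusted p = 0.598). A stretch of 115 exon bases is shared with Rufy2 on the opposite strand, and the library kit does not mark strand.

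**Figure D2:**
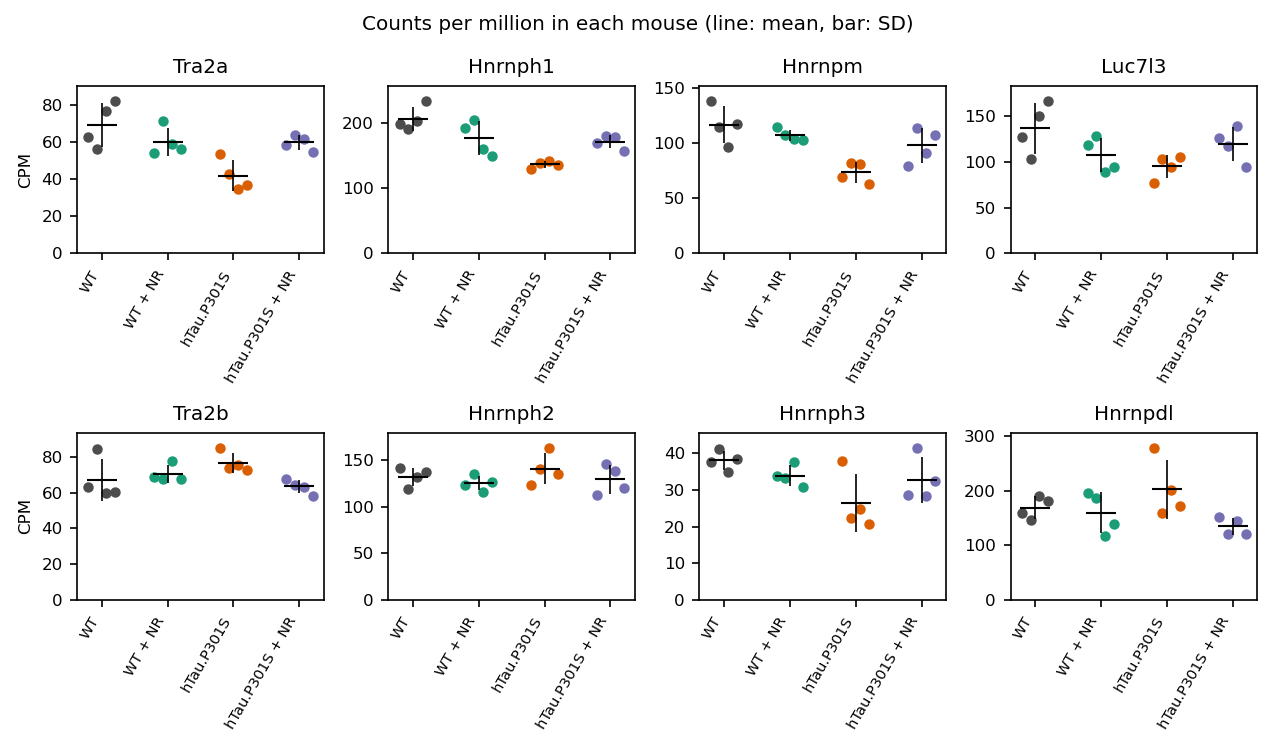
Level in CPM of 8 genes in each mouse, one point per mouse, with the group mean as a horizontal line and the SD as a bar. Tra2a, Hnrnph1 and Hnrnpm sit lower in each hTau.P301S mouse than in any WT mouse, while Tra2b and Hnrnph2 are not.

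Without hTau.P301S replicate 1, unadjusted p-values under 0.05 were found for 9 members (25.0%), all lower, where 11.8% of all genes had one in either direction and 6.63% in the lower direction. The 9 were the 5 above together with Srsf5, Srsf6, Srsf7 and Srsf9. The median was then -0.23 over SR-type and -0.03 over Hnrnp genes, with -0.03 over all genes, so the Hnrnp median equalled that of all genes. None of the 36 passed the adjusted limit in that fit either. Without WT replicate 2, 5 members had an unadjusted p under 0.05, all lower and with Srsf11 in the place of Hnrnph3, against 7.0% of all genes in either direction and 4.55% in the lower one.

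The number of members called in hTau.P301S against WT mice depended on the model. DESeq2 on the same 8 mice called Hnrnph1 (log2 fold change -0.61, adjusted p = 0.0248), where it called 0.568% of all genes. With all 16 mice in the model, DESeq2 called Hnrnph1, Hnrnpm and Tra2a, and 2.48% of all genes. Without hTau.P301S replicate 1, DESeq2 also called Hnrnph3 (4 members, 2.25% of all genes). EdgeR over the 4 groups without that mouse called Tra2a and Hnrnph3, and 0.296% of all genes.

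Other members with the groups apart were few. Groups did not overlap for Hnrnpa2b1, Hnrnph1, Hnrnpm and Tra2a on the lower side (4 of 36), against 2.69% of all genes, and for Hnrnpk on the higher side, against 3.55%. Hnrnpa2b1 had 449, 409, 417 and 425 CPM in WT and 348, 330.4, 403 and 331 CPM in hTau.P301S mice, a log2 fold change of -0.27 (SE 0.17, unadjusted p = 0.160, adjusted p = 0.599). Hnrnpk had 357, 389.7, 339 and 346 CPM in WT and 399, 408, 444 and 421 CPM in hTau.P301S mice, a log2 fold change of 0.23 (SE 0.17, unadjusted p = 0.214, adjusted p = 0.625). Of the 36 members, 26 had an absolute log2 fold change under 0.3. The members not described above lay between -0.59 for Luc7l2 (-0.34 without hTau.P301S replicate 1) and 0.27 for Hnrnpdl.

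**Figure D3:**
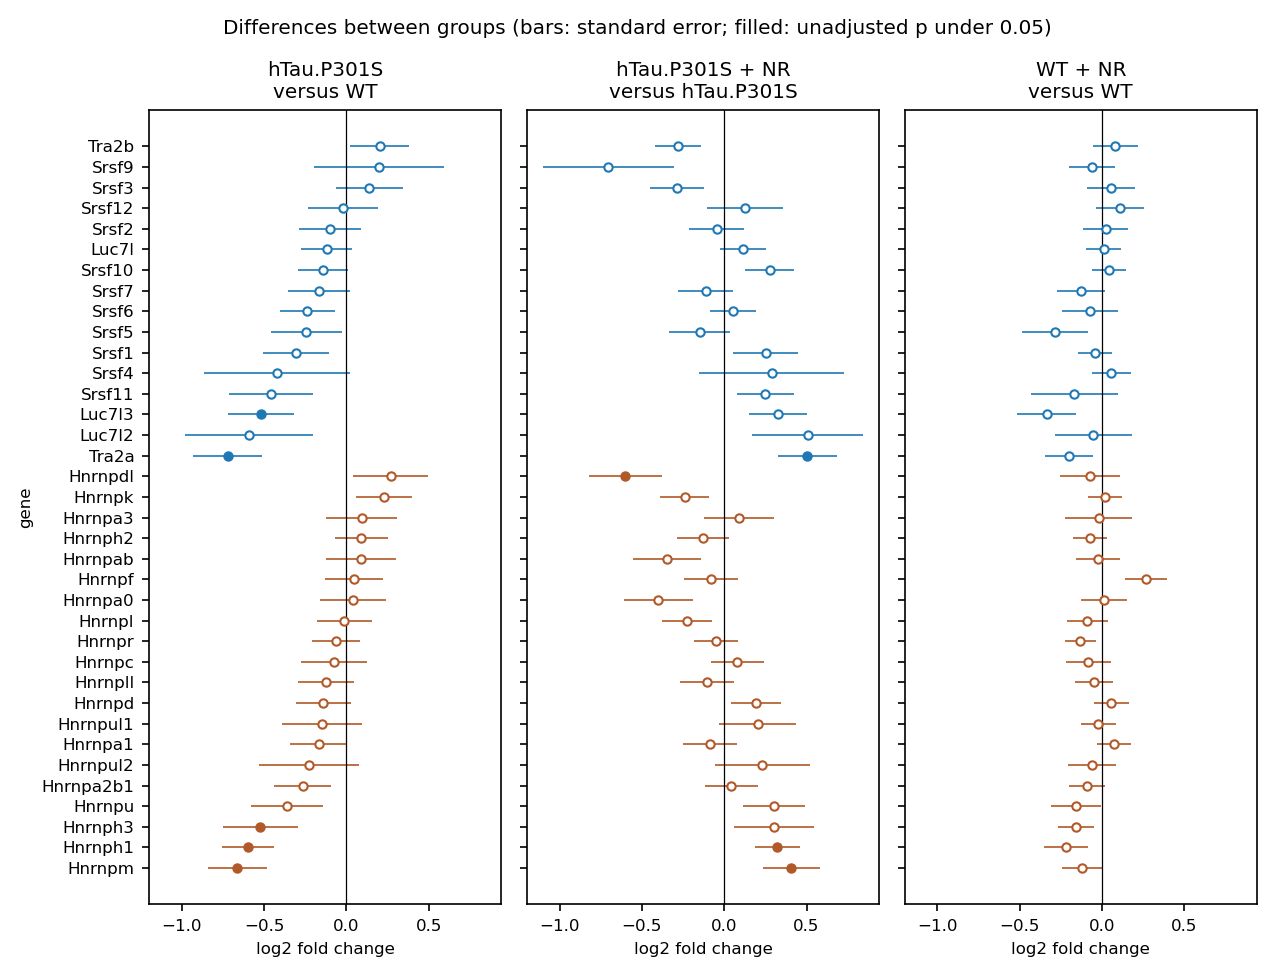
Log2 fold change with its standard error for each of the 36 genes in 3 comparisons, SR-type genes in blue and Hnrnp genes in brown, with filled points for an unadjusted p under 0.05. Tra2a, Luc7l3, Hnrnph3, Hnrnph1 and Hnrnpm are filled on the left of 0 for hTau.P301S against WT, and no point is filled for NR in WT mice.

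As a share of all counts, before any scaling, the 36 genes took 0.545 ± 0.021% (SD, n = 4) in WT and 0.423 ± 0.081% in hTau.P301S mice, and with NR 0.511 ± 0.035% and 0.487 ± 0.026%. The share was 0.306% in hTau.P301S replicate 1 and from 0.435% to 0.478% in the other hTau.P301S mice, all under the lowest WT mouse at 0.528%. These shares move with whatever else takes up counts. The TMM factors that correct for this were 0.685 in hTau.P301S replicate 1, from 0.955 to 1.01 in the other 3 hTau.P301S mice and from 1.03 to 1.08 in WT mice. Scaled by total counts alone, the median of all genes in hTau.P301S against WT mice went from 0.02 to -0.19, and 35 of the 36 members had a negative log2 fold change in place of 26. Relative to that shift, the members' median was -0.33 against -0.19 for all genes, where TMM scaling gave -0.14 against 0.02. The 5 genes named above were negative under both scalings.

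NR in hTau.P301S mice was compared between hTau.P301S + NR and hTau.P301S. The hTau.P301S mice are the same as in the comparison with WT, so the 2 comparisons are not independent and a value high or low in those 4 mice moves both in opposite directions. None of the 36 genes passed the limits, where 0.0061% of 16386 genes tested did. Of the members, 20 were positive and 16 negative, with a median log2 fold change of 0.12 over SR-type genes, -0.0026 over Hnrnp genes and -0.03 over all genes. Unadjusted p-values under 0.05 were found for 4 members (11.1%), against 12.9% of all genes (5.86% higher and 7.01% lower), so the members' share was near the background. Scaled by total counts alone, 28 of the 36 were positive, with the median of all genes at 0.16.

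The 4 members were Tra2a, Hnrnph1 and Hnrnpm on the higher side and Hnrnpdl on the lower side. Tra2a stood at 58.5, 64.1, 61.9 and 54.8 CPM in hTau.P301S + NR mice, above each of the 4 hTau.P301S mice, with a log2 fold change of 0.50 (SE 0.18, unadjusted p = 0.0208, adjusted p = 0.367). Hnrnph1 stood at 169, 179.6, 177 and 157 CPM, again above each hTau.P301S mouse, with a log2 fold change of 0.32 (SE 0.14, unadjusted p = 0.0431, adjusted p = 0.367). Hnrnpm, at 78.7, 114, 91.0 and 107 CPM, overlapped the hTau.P301S mice at replicate 1 of the NR group, and its log2 fold change was 0.41 (SE 0.17, unadjusted p = 0.0443, adjusted p = 0.367). Of the 8 fits that each left out 1 mouse, the unadjusted p stayed under 0.05 in 6 for Tra2a and Hnrnpdl, in 3 for Hnrnpm and in 2 for Hnrnph1.

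Hnrnpdl (ENSMUSG00000029328, chromosome 5 from 100033577 to 100039664), a relative of the mRNA decay factor Hnrnpd, went the other way. It had 279, 159.6, 201 and 172 CPM without NR and 151, 121, 145 and 121 CPM with NR in this genotype, so that every NR mouse was lower. In WT mice it had 158, 146, 191 and 181 CPM and in WT + NR mice 195, 187, 117 and 139.9 CPM. The log2 fold change of NR in hTau.P301S mice was -0.60 (SE 0.22, unadjusted p = 0.0236, adjusted p = 0.367), and hTau.P301S replicate 1 was the highest of all 16 mice for this gene. Without that mouse the value was -0.39 (SE 0.12, unadjusted p = 0.0109, adjusted p = 0.160).

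Groups did not overlap for 3 members on the higher side (Hnrnph1, Hnrnpu and Tra2a), against 6.33% of all genes, and for 4 on the lower side (Hnrnpdl, Hnrnpk, Srsf3 and Tra2b), against 5.54%. Without hTau.P301S replicate 1, 7 members had an unadjusted p under 0.05 (19.4%, against 18.0% of all genes, 10.6% higher and 7.4% lower), adding Hnrnph3, Hnrnpk and Tra2b. No member was called by DESeq2 on the same 8 mice, which called 1.4% of all genes, and DESeq2 over 15 mice without that replicate called Tra2a and Hnrnph3 (2 members, 0.623% of all genes).

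The interaction term asked directly whether the NR difference in hTau.P301S mice differed from that in WT mice, over all 16 mice. No member passed an adjusted p of 0.05, and 0.0% of the 17555 genes did (edgeR), while 1390 genes (7.92%) had an unadjusted p under 0.05. Of the members, 4 did (11.1%), all with a positive interaction, against 3.29% of all genes in that direction. The WT and hTau.P301S mice of the first comparison enter this term as well, so a value low in hTau.P301S mice raises it. All 4 were among the 5 genes lower in hTau.P301S against WT mice, so their interactions are not independent evidence. Tra2a had an interaction of 0.72 (SE 0.23, unadjusted p = 0.00651, adjusted p = 0.558) on the log2 scale. Hnrnph1 had 0.55 (SE 0.18, unadjusted p = 0.00830, adjusted p = 0.558). For Luc7l3 the interaction was 0.67 (SE 0.26, unadjusted p = 0.0195, adjusted p = 0.558), and for Hnrnpm 0.54 (SE 0.21, unadjusted p = 0.0220, adjusted p = 0.558). Positive interactions were found for 23 of the 36 genes and negative ones for 13, with a median of 0.15 over SR-type, 0.11 over Hnrnp and -0.02 over all genes. On total counts alone, 28 of the 36 were positive, with the median of all genes at 0.18. DESeq2 called no member at an adjusted p of 0.05 in this term, and 6 had an unadjusted p under 0.05 (16.7%, against 5.77% of 32880 genes in that fit). That fit had no low-count filter, so its share is not like the 7.92% above.

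Without hTau.P301S replicate 1, the interaction had an unadjusted p under 0.05 for 5 members, the 4 above and Hnrnph3, against 7.5% of all genes. Its median over Hnrnp genes then dropped from 0.11 to 0.02. Leaving out WT replicate 2 raised the number to 8 of 36 (22.2%, against 9.31% of all genes), with Tra2b, Srsf3, Hnrnpf and Hnrnpu in addition. Of these 8 interactions, 5 were positive and 3 negative (Tra2b, Srsf3 and Hnrnpf), against 4.43% and 4.88% of all genes.

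Because Tra2a, Hnrnph1, Luc7l3 and Hnrnpm were the members with an unadjusted p under 0.05 in the interaction, the sequence upstream of their RefSeq start sites is shown. Each line gives the 120 bases before the start in RefSeq's window for that gene, 5′ to 3′ on the strand of the gene, from GRCm38.p6. Capitals mark matches to a CCAAT box (CCAAT), a GC box (GGGCGG) or a cAMP response element (CRE, TGACGTCA) on either strand.
Tra2a, chr6:49264053-49264172, minus strand: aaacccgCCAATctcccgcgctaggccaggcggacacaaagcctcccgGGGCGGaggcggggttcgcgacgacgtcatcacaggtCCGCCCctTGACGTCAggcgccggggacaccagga
Hnrnph1, chr11:50376870-50376989, plus strand: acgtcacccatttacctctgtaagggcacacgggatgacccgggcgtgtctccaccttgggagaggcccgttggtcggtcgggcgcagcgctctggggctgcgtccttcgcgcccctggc
Luc7l3, chr11:94321964-94322083, minus strand: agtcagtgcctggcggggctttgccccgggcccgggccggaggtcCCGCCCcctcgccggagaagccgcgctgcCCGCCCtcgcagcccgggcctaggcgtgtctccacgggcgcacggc
Hnrnpm, chr17:33685459-33685578, minus strand: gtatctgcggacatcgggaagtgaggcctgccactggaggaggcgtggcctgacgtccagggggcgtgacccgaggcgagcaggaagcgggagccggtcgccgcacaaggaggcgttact

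The Tra2a window holds a CCAAT box, a pair of GC boxes and a CRE, and the Luc7l3 window 2 GC boxes. The windows of Hnrnph1 and Hnrnpm hold none of these letters. The Hnrnpm window lies inside the gene positions given above, which come from GENCODE, so it is upstream of a RefSeq start only. The Luc7l3 window also overlaps the positions given for its gene. The 4 windows are rich in G and C, from 68.3% to 80.0%. RefSeq lists 5 start windows for Hnrnph1, and the first is shown.

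Promoter windows of 300 bases, 250 before and 50 after the start, matched 33 of the 36 members. A GC box was found in 78.8% of them and in 35.9% of all 27025 windows, and a CCAAT box in 54.5% and 37.9%. The ETS motif CCGGAAG occurred in 18.2% of members and 9.12% of all windows, the TATA box TATAAA in 12.1% and 14.2%, and the CRE in 3.03%, which is Tra2a alone, and 1.88%. Median GC content was 65.0% in the members' windows and 52.7% in all windows. Both strands were searched. The 27025 windows were not limited to the genes kept here, so these differences are not shown to be particular to the families. A match describes the letters of a window and not the binding of a factor.

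NR in WT mice gave the smallest differences. No member passed the limits, as for 0.0% of the 16714 genes tested (edgeR), and none of the 36 had an unadjusted p under 0.05, where 132 genes (0.79%) did. DESeq2 on the same 8 mice called no member and 0.00948% of all genes. The median log2 fold change was -0.05 over SR-type, -0.07 over Hnrnp and 0.0043 over all genes, and 35 of the 36 had an absolute value under 0.3. Hnrnpr was lower without overlap, at 101, 104, 94.8 and 90.9 CPM in WT + NR and 115, 105, 105 and 106 CPM in WT mice (1 of 36, against 0.389% of all genes in that direction), with a log2 fold change of -0.13 (SE 0.10, unadjusted p = 0.198, adjusted p = 0.9999). Tra2a stood at 54.1, 71.1, 58.9 and 56.5 CPM and Hnrnph1 at 192, 205, 159.6 and 149 CPM in WT + NR mice, both overlapping WT. Luc7l3 had 119, 129, 89.6 and 94.5 CPM, Hnrnpm 114, 107, 103 and 103 CPM and Hnrnph3 33.9, 33.3, 37.6 and 30.8 CPM. Without WT replicate 2, Luc7l3 (lower) and Hnrnpf (higher) had an unadjusted p under 0.05, 2 of 36 against 1.72% of all genes.

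Between the NR-treated genotypes, hTau.P301S + NR against WT + NR, none of the 36 passed the limits, against 0.054% of 16671 genes tested. Unadjusted p-values under 0.05 were found for 3 members (8.33%), all lower, against 6.09% of all genes in either direction and 3.67% in the lower one. None of the 5 genes named for hTau.P301S against WT mice was among them. The medians were -0.06 over SR-type, -0.05 over Hnrnp and -0.02 over all genes.

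Hnrnpa1 (ENSMUSG00000046434, chromosome 15 from 103240432 to 103246692), the classical exon silencer of the family, had 209, 216, 191 and 178 CPM in WT + NR and 151, 172, 152 and 162 CPM in hTau.P301S + NR mice. The groups did not overlap, and the log2 fold change was -0.32 (SE 0.10, unadjusted p = 0.00994, adjusted p = 0.778). In WT mice it stood at 195, 189, 183 and 192 CPM and in hTau.P301S mice at 180.1, 161, 194 and 139 CPM.

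Srsf9 (ENSMUSG00000029538, chromosome 5 from 115327177 to 115333080), a short SR protein that can also silence exons, had 55.05, 42.4, 35.8 and 40.5 CPM in WT + NR and 33.2, 35.2, 31.7 and 28.5 CPM in hTau.P301S + NR mice. These groups were also apart, with a log2 fold change of -0.43 (SE 0.14, unadjusted p = 0.0130, adjusted p = 0.781), or -0.28 (SE 0.11, unadjusted p = 0.0329, adjusted p = 0.833) without WT + NR replicate 1. Without NR, WT mice had 46.1, 45.1, 45.9 and 44.8 CPM and hTau.P301S mice 104, 31.2, 42.8 and 29.9 CPM, so that replicate 1 was high and the other 3 were below every WT mouse.

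Hnrnpf (ENSMUSG00000042079, chromosome 6 from 117900324 to 117925622), which binds G runs like Hnrnph1, had 57.6, 54.5, 50.4 and 55.01 CPM in WT + NR and 44.0, 53.2, 36.7 and 43.9 CPM in hTau.P301S + NR mice. Replicate 2 of hTau.P301S + NR lay above replicate 3 of WT + NR, and the log2 fold change was -0.29 (SE 0.12, unadjusted p = 0.0401, adjusted p = 0.781). Only 2 of the 8 fits that each left out 1 mouse kept an unadjusted p under 0.05 for Hnrnpf. WT mice stood at 45.9, 54.2, 36.9 and 44.6 CPM and hTau.P301S mice at 47.8, 49.5, 48.8 and 41.0 CPM. Hnrnpa0 was lower without overlap too, which made 3 of 36 with Hnrnpa1 and Srsf9, against 2.11% of all genes.

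Close relatives of Tra2a and Hnrnph1 were set beside them. Tra2a and Tra2b encode proteins that bind the same kind of enhancer. The difference of log2 CPM, Tra2a minus Tra2b, averaged 0.05 ± 0.47 (SD, n = 4) in WT and -0.89 ± 0.20 in hTau.P301S mice, and with NR -0.23 ± 0.21 and -0.09 ± 0.09. It was -0.67, -0.79, -1.12 and -0.98 in the 4 hTau.P301S mice and from -0.58 to 0.44 in the other 12. Tra2b itself stood at 63.4, 84.4, 59.6 and 60.4 CPM in WT and 85.3, 74.1, 75.5 and 72.7 CPM in hTau.P301S mice, and with NR at 68.7, 67.7, 77.9 and 67.6 CPM and 67.7, 64.6, 63.5 and 58.5 CPM.

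Hnrnph1 minus Hnrnph2, encoded by near-identical paralogs whose reads may in part be exchanged, averaged 0.64 ± 0.12 in WT and -0.04 ± 0.12 in hTau.P301S mice on the same scale, and with NR 0.49 ± 0.18 and 0.41 ± 0.12. Each hTau.P301S mouse was at or below 0.08 and each of the other 12 at or above 0.24. Hnrnph2 had 141, 118, 132 and 137 CPM in WT and 123, 141, 163 and 135 CPM in hTau.P301S mice, which overlapped. These pairs were chosen after the values of Tra2a and Hnrnph1 were known, so they are given as a description.

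The 3 members of each class with the highest FPKM by deposited length had no unadjusted p under 0.05 other than Hnrnpa1 between the NR-treated genotypes. Hnrnpa0 had 231, 293, 211 and 208 CPM in WT and 246, 252, 275 and 197 CPM in hTau.P301S mice. With NR the values were 264, 227, 226 and 230.1 CPM in the WT and 168, 225, 135 and 209.6 CPM in the hTau.P301S genotype. Its log2 fold change was 0.04 in hTau.P301S against WT, -0.40 (SE 0.21, unadjusted p = 0.0899, adjusted p = 0.370) with NR in hTau.P301S mice, and -0.36 (SE 0.16, unadjusted p = 0.0519, adjusted p = 0.781) between the NR-treated genotypes. Without hTau.P301S + NR replicate 3 the last 2 values were -0.26 and -0.23. Hnrnpa2b1 had 418, 429.5, 372 and 370.4 CPM in WT + NR and 359, 397, 349.6 and 355 CPM in hTau.P301S + NR mice, and its log2 fold change with NR was 0.04 (SE 0.16) in hTau.P301S and -0.09 (SE 0.11) in WT mice.

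Srsf5, whose protein promotes exon inclusion, stood at 189.6, 149, 205 and 227 CPM in WT and 208, 146, 159 and 135 CPM in hTau.P301S mice. With NR the values were 197, 183, 126 and 123 CPM in the WT and 153, 149.8, 156 and 130.0 CPM in the hTau.P301S genotype. Srsf7 had 78.3, 97.9, 76.0 and 87.1 CPM in WT, 94.7, 68.9, 69.9 and 67.7 CPM in hTau.P301S, and with NR 72.0, 91.7, 83.4 and 62.1 CPM and 65.05, 74.4, 68.0 and 72.6 CPM in that order of genotypes. The values of Srsf2 were 71.1, 95.5, 99.6 and 99.0 CPM in WT, 66.8, 87.9, 91.3 and 94.8 CPM in hTau.P301S, and with NR 98.2, 102, 83.6 and 85.5 CPM and 87.3, 93.2, 79.1 and 71.2 CPM. The groups of all 3 genes overlapped in every comparison, and in hTau.P301S against WT their log2 fold changes were -0.24 (SE 0.22), -0.17 (SE 0.19) and -0.10 (SE 0.19). These values depended on single mice. Without hTau.P301S replicate 1 they were -0.40 (unadjusted p = 0.0340, adjusted p = 0.404) for Srsf5, -0.31 (unadjusted p = 0.0398, adjusted p = 0.407) for Srsf7 and -0.0083 for Srsf2. Srsf5 stood at -0.37 without WT replicate 2, and Srsf2 at -0.23 without WT replicate 1 and at -0.17 without hTau.P301S replicate 4.

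**Figure D4:**
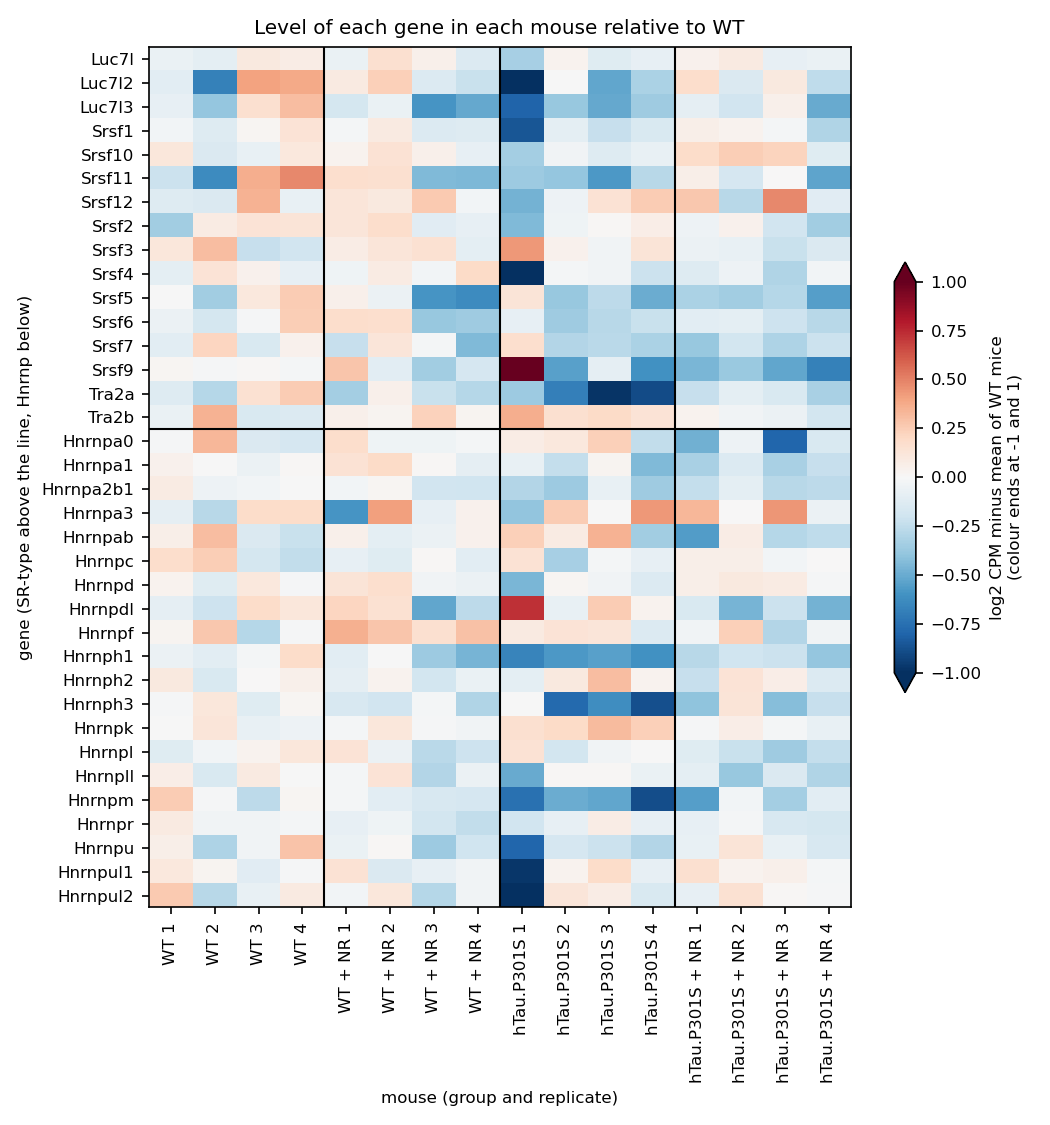
Log2 CPM of each gene (rows) in each mouse (columns) minus the mean of the 4 WT mice, blue for lower and red for higher, with colours ending at -1 and 1. The row of Hnrnph1 is blue in all 4 hTau.P301S mice, and the column of hTau.P301S replicate 1 differs from its 3 neighbours in many rows.

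The library of hTau.P301S replicate 1 stood apart for the families as it did in its mitochondrial share. It lay outside the range of the other 15 mice for 19 of the 36 genes, 14 of them lower and 5 higher, while each other mouse lay outside for 2 to 8. Against the mean of the other 3 hTau.P301S mice, the log2 difference was -2.37 for Srsf4, -1.55 for Luc7l2, -1.31 for Hnrnpul2, -1.02 for Hnrnpul1 and 1.59 for Srsf9. No other mouse differed by over 1 for any member. The correlation between log2 length and the difference was -0.40 over all 17555 genes, against -0.21 to 0.33 in the other 15 mice, each set against the rest of its group. Over the 36 members it was -0.34, within the -0.41 to 0.45 of the other mice. Genes are not independent replicates. Tra2a (0.49), Hnrnph1 (-0.09) and Hnrnpm (-0.11) differed little or in the other direction, and their separation from WT mice was present in the other 3 hTau.P301S mice.

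**Figure D5:**
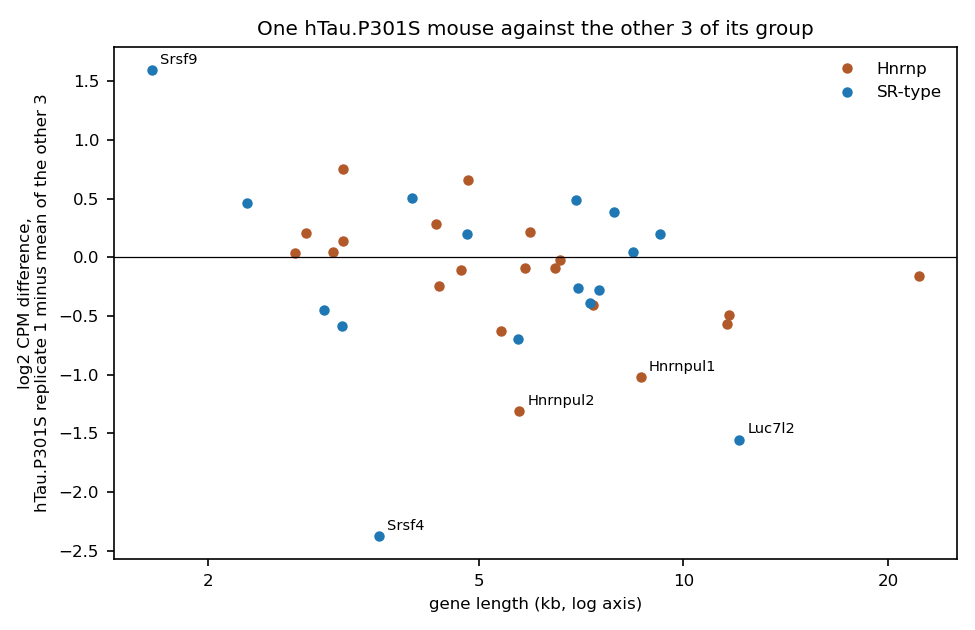
Difference of log2 CPM between hTau.P301S replicate 1 and the mean of the other 3 hTau.P301S mice against deposited gene length in kilobases (log axis), one point per gene. Srsf4 is lowest at -2.37 and Srsf9, the shortest by deposited length with 1653 bases, is highest at 1.59.

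Some members varied together from mouse to mouse within groups. Over the 15 mice without that replicate, after subtracting group means, log2 CPM correlated best for Luc7l3 with Srsf11 (Pearson r 0.96), Hnrnpa2b1 with Hnrnpr (0.94), Hnrnph1 with Srsf6 (0.92) and Luc7l2 with Srsf11 (0.91). These were the 4 of 630 pairs over 0.9, and the median of all pairs was 0.21. The same library gives both values of a pair, so this is a description. Srsf11, Luc7l2, Luc7l3 and Srsf5 were also related to Clk1 and Clk4, kinases of SR proteins, and to the nuclear RNA Malat1, with r from 0.70 to 0.92. In WT mice, Srsf11 stood at 86.9, 65.03, 129.9 and 141 CPM and Luc7l2 at 125, 83.9, 177 and 174 CPM, lowest in replicate 2, whose striatal markers were high, and highest in replicates 3 and 4.

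Malat1 itself had a log2 fold change of -2.57 (SE 0.76, unadjusted p = 0.00820, adjusted p = 0.598) in hTau.P301S against WT mice and of 1.48 (SE 0.31, unadjusted p = 0.00108, adjusted p = 0.266) with NR in hTau.P301S mice. It had 304, 32.2, 562 and 658 CPM in WT, 45.7, 109, 49.0 and 57.9 CPM in hTau.P301S and 212, 157, 219 and 142 CPM in hTau.P301S + NR mice. WT replicate 2 lay below every hTau.P301S mouse, so these 2 groups overlapped. Malat1 was looked up after its correlation was seen. Its part in the members' differences was not tested.

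The members share features of gene structure that the choice by name did not use. A transcript annotated as a target of nonsense-mediated decay is listed for 24 of the 36 (66.7%), against 26.8% of the 14884 protein-coding genes kept. A transcript with a retained intron is listed for 27 (75.0%), against 55.5%. The median number of transcripts was 8.5 per member and 5 per protein-coding gene. Genes of like level or number of transcripts were not compared, so these shares are not shown to be particular to the families. Tra2a, Luc7l3 and Hnrnph3 have an annotated decay target, and Hnrnph1 and Hnrnpm have none. The counts are per gene, so productive and decay-bound transcripts are not told apart. Exon bases are shared with another gene for 15 of the 36, among them Hnrnpab with Phykpl (809 bases) and Srsf2 with Mettl23 (460 bases) and Mfsd11 (288 bases), all on opposite strands.

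Genes that act with the members were read from 4 further lists. Of 16 SR-related proteins, which carry arginine-serine stretches, 14 had a negative log2 fold change in hTau.P301S against WT mice and 15 a positive one with NR in hTau.P301S mice, where the same hTau.P301S mice enter both. Their medians were -0.27 and 0.19, against 0.02 and -0.03 over all genes. None had an unadjusted p under 0.05 in either comparison. All 16 had a positive interaction, a term that those mice enter as well. In it Srrm2, a scaffold of nuclear speckles, stood at 1.04 (SE 0.47, unadjusted p = 0.0434, adjusted p = 0.558). Srrm2 had 296, 199.6, 447 and 508 CPM in WT mice, 78.6, 266, 221 and 263 CPM in hTau.P301S and 418, 290.05, 386 and 327 CPM in hTau.P301S + NR mice, so that the WT range spanned most of the others. Between the NR-treated genotypes, Bclaf1 (0.28, unadjusted p = 0.0284) and Rsrc1 (0.24, unadjusted p = 0.0399) were higher on the log2 scale, both with an adjusted p of 0.781.

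Of 13 SR kinases, phosphatases and the importer Tnpo3, none had an unadjusted p under 0.05 in hTau.P301S against WT or with NR in either genotype. Srpk2, a kinase of SR proteins in brain, differed by 0.27 (SE 0.11, unadjusted p = 0.0376, adjusted p = 0.781) between the NR-treated genotypes. Ppp1cc, a phosphatase subunit, had an interaction of -0.39 (SE 0.18, unadjusted p = 0.0496, adjusted p = 0.558). The 13 hnRNPs under other symbols, such as Ptbp1 and Pcbp1, had no unadjusted p under 0.05 in any of the 5 comparisons, with a median of 0.02 in hTau.P301S against WT.

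Of 14 genes of nonsense-mediated decay, Smg1, the kinase of the pathway, had a log2 fold change of -0.88 (SE 0.38, unadjusted p = 0.0482, adjusted p = 0.598) in hTau.P301S against WT mice and of 0.90 (SE 0.29, unadjusted p = 0.0125, adjusted p = 0.367) with NR in hTau.P301S mice. Its interaction was 1.12 (SE 0.47, unadjusted p = 0.0306, adjusted p = 0.558). Smg1 had 138, 68.6, 191 and 215 CPM in WT and 48.3, 115, 72.7 and 97.1 CPM in hTau.P301S mice. These groups overlapped at WT replicate 2, and hTau.P301S replicate 1 was the lowest mouse. Eif4a3, the helicase of the exon junction complex, had -0.75 (SE 0.31, unadjusted p = 0.0395, adjusted p = 0.367) with NR in hTau.P301S mice and an interaction of -0.77 (SE 0.34, unadjusted p = 0.0411, adjusted p = 0.558). In hTau.P301S replicate 1 Eif4a3 stood at 131 CPM, against 51.3 to 61.7 CPM in the other 3 mice of the group.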

How the data were processed

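Poly(A) RNA of 16 hippocampi was sequenced. The authors trimmed the reads (FastQC and Trim Galore, per the submitters' processing notes), used STAR for alignment to mm10 and RSEM for counting by gene, and deposited the counts as whole numbers without normalization, with another value, a length for each gene. Versions and the strand setting are not given in the sources used here.

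Each comparison was fitted to the 8 mice of its 2 groups with edgeR 4.0.16 in R 4.3.3 (default low-count filter, TMM, quasi-likelihood test). The interaction used all 16 mice. P-values were adjusted by Benjamini-Hochberg over all genes tested, never over the members. Calls needed an adjusted p under 0.05 with a log2 fold change beyond 0.5 in either direction, and for the interaction the adjusted p alone. Standard errors came from the fold change and its test statistic. CPM and FPKM used TMM factors over 16 mice, FPKM also the deposited length, and log2 CPM a prior count of 2. Single genes were tested by two-sided exact permutation (scipy 1.17.1, smallest p 0.0286). Positions and transcripts come from GENCODE M21 (GRCm38, the assembly of mm10), matched for 36 of 36 members, and promoter windows from RefSeq. In 28 of 33 windows the start lay in a GENCODE transcript. The fits were tested on simulated counts.

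Total counts of 16490261 to 21915362 per mouse set the precision. No pair of replicates agreed within sampling noise. Replicate numbers come from the labels. Same-numbered mice of different groups had correlations from -0.54 to 0.29, with 5 of 16 over 0.1, so the numbers do not pair the mice.

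The members and gene lists were chosen with earlier results of these data known. Every member is named. Values per mouse and full statistics are given for members with an unadjusted p under 0.05 in a comparison, for the 3 members of each class with the highest FPKM and for Hnrnph1, Hnrnpm and Tra2a. Other lists are named by the smallest unadjusted p under 0.05, at most 4 per list and comparison. Genes outside this rule were named after their values were seen. Alternatives were DESeq2 1.42.0 (without the low-count filter), other normalizations and filters, all 4 groups in one fit, the replicate block and each mouse left out. Fits that leave out hTau.P301S replicate 1 or WT replicate 2 from a 4-group model, and scaling by total counts, were chosen after seeing the data. Splicing events and isoforms were not analysed here.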

Additional observations from a re-analysis of the deposited data

Results flagged for a closer look

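Within a group of 4 mice, a mouse apart from the others by Dixon's 95% criterion was found in 8 of the 144 combinations of member and group. Chance gives about 1 in 20, or 7.2 of 144. In hTau.P301S replicate 1, Srsf4 was low at 3.59 CPM (the others 17.4 to 20.1 CPM) and Srsf7 high at 94.7 CPM (the others 67.7 to 69.9 CPM). Tra2b was high at 84.4 CPM in WT replicate 2 (the others 59.6 to 63.4 CPM) and at 77.9 CPM in WT + NR replicate 3 (the others 67.6 to 68.7 CPM). In WT replicate 1, Hnrnpr was high at 115 CPM (the others 104.9 to 105.9 CPM) and Srsf2 low at 71.1 CPM (the others 95.5 to 99.6 CPM). Srsf12 was high at 27.0 CPM in WT replicate 3 (the others 19.2 to 20.2 CPM). Hnrnpa0 was high at 264 CPM in WT + NR replicate 1 (the others 226 to 230.1 CPM). No member's NR difference differed between genotypes at an adjusted p under 0.05.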

How the results depend on the processing

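Of 784 values under alternatives, 728 were classed as unchanged, 42 as moved, 14 as stronger and none as reversed. Class medians and single fold changes near 0 still changed sign when each mouse was left out in turn. The log2 fold change of Hnrnpa0 in hTau.P301S against WT ran from -0.03 to 0.15. The Hnrnp median with NR in hTau.P301S mice, -0.0026 in the main fit, ran from -0.04 to 0.03. The SR-type median with NR in WT mice, -0.05 in the main fit, ran from -0.08 to 0.01. The number of members called in hTau.P301S against WT mice was 0 with edgeR (all genes 0.00611%) and 1 with DESeq2 on the same mice (0.568%). It was 3 with DESeq2 on 16 mice (2.48%), 4 with DESeq2 on 15 mice (2.25%) and 2 with edgeR over 15 mice of the 4 groups (0.296%). EdgeR over 14 mice (also without WT replicate 2) called 3. The share of all genes called in that fit is not given, so its calls cannot be set against a background. With NR in hTau.P301S mice, DESeq2 on 15 mice called 2 members (all genes 0.623%). The number at an unadjusted p under 0.05 is given with the share of all genes under that limit in the same fit. DESeq2 had no low-count filter and tested 32880 genes over 16 mice and 33384 over 15, against 17555 for edgeR over the 4 groups. Its shares are therefore not like those of edgeR. In hTau.P301S against WT, it was 5 (all genes 7.14%), then 8 with DESeq2 on 16 mice (11.7%), 10 with DESeq2 (10.1%) or edgeR (14.9%) on 15 mice, 14 over 14 mice (16.5%) and 9 with total counts alone (7.68%). With NR in hTau.P301S it was 4 (12.9%), then 9 with DESeq2 on 16 mice (13.0%), 8 on 15 mice (7.86%), 7 with edgeR over the 4 groups (22.5%), 9 over 14 mice (14.2%) and 2 without the filter (10.7%). In WT mice it was 0 (0.79%), then 2 with DESeq2 on 15 mice (1.47%), 1 with edgeR on 15 mice (1.75%) and 7 over 14 mice (3.25%). Between the NR-treated genotypes it was 3 (6.09%), then 1 with DESeq2 on 16 mice (1.72%) and 1 with edgeR over the 4 groups (1.87%). The cause of these moves was not tested. With total counts alone, the medians of SR-type and Hnrnp genes were -0.45 and -0.32 in hTau.P301S against WT, 0.29 and 0.19 with NR in hTau.P301S, and 0.37 and 0.29 in the interaction.

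Leaving out each mouse in turn gave 0 members called in every comparison. The number at an unadjusted p under 0.05 ran from 3 (without WT replicate 3 or 4, or hTau.P301S replicate 3) to 9 (without hTau.P301S replicate 1) in hTau.P301S against WT, from 1 (without hTau.P301S replicate 3 or 4, or hTau.P301S + NR replicate 2) to 7 (without hTau.P301S replicate 1) with NR in hTau.P301S, from 0 to 2 (without WT replicate 2) with NR in WT, from 2 to 5 (without WT + NR replicate 3 or hTau.P301S + NR replicate 2) between the NR-treated genotypes, and from 3 to 8 (without WT replicate 2) in the interaction. In these fits the share of all genes ran, in the same order, from 4.26% to 11.8%, from 5.37% to 20.4%, from 0.709% to 1.89%, from 3.56% to 11.2% and from 5.06% to 14.5%. With the replicate number as a block, which does not pair these mice, the number was 3 in hTau.P301S against WT (all genes 4.71%) and 1 with NR in hTau.P301S (5.88%), and no member was called.

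Depth limits Srsf4 most, with 42 counts in hTau.P301S replicate 1.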
